A study of Homo sapiens with 12 samples.

Results

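Ribosome biogenesis genes encode the factors that make, modify and assemble ribosomal RNA in the nucleolus. A set of 50 of them was followed here, chosen by name, and sorted by known role into 6 steps. A gene counted as measured where the array annotation gave one of its probe sets exactly 1 gene symbol, which held for 43 of the 50, and of several such probe sets the one with the highest mean level on all 12 arrays was used. NOP56, DKC1, BOP1, PPAN, EBNA1BP2, GNL3 and DDX18 were not analysed here. The whole series holds 19775 genes measured in this way, of which 9888 passed a filter on dim genes (the upper 0.5, ranked on whichever line had the higher mean). All 43 measured members passed, so the filter removed none of them. Single-array values are given for members called after siRNA, for several long-studied nucleolar genes and for the largest differences between the lines. RRN3, NOP10 and the other extremes of a step were added after their values were seen.

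The samples were OCI-Ly7 and Pfeiffer, both human diffuse large B-cell lymphoma lines of the germinal centre type, grown in medium with serum. Each line was transiently transfected with an siRNA against BCL6, a repressor of transcription that germinal centre B cells depend on, or with a non-target control, and total RNA was taken after 48 h. Each of the 4 groups had 3 Affymetrix U133 Plus 2.0 arrays. Titles of the Pfeiffer controls read shRNA while their descriptions read siRNA, so the kind of control in that line is unsure. The labels do not say whether replicate arrays stem from separate cultures. The p-values therefore reflect the spread among these arrays alone, part of which may be technical. These are bulk samples, in which fewer cells of a type and less RNA per cell cannot be told apart. The arrays carry no read depth, and their number limits the precision.

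Values are log2(signal + 16), and changes are differences on that scale, which understates the change of dim genes. P-values are two-sided, from limma fitted on all 12 arrays, and adjusted by Benjamini-Hochberg over the 9888 genes. A gene was called at an adjusted p below 0.05. Levels were compared for one probe set across arrays and not between genes. Probe sets that can also bind related transcripts, pseudogene copies among them, are uncertain. The probe set used was of that kind for 17 members and of another kind for 26, and 37 of the 43 had at least 1 of the other kind. Of 5 measured B cell markers (MS4A1, CD79A, CD79B, PAX5 and CD22) 5 lay above the lowest level kept, 7.91, in each line. Of 5 T cell markers 0 did in OCI-Ly7 and 1 in Pfeiffer, which was CD8A at 13.57 in controls while CD3D was below 7.91. Of 5 myeloid markers 0 did in either line. Among 6 stromal and epithelial markers 1 did in OCI-Ly7 and 3 in Pfeiffer, and plasma cell markers did for 5 of 6 in each line. BCL6 itself fell by 0.42 ± 0.08 (SE) in OCI-Ly7 and by 0.96 ± 0.08 in Pfeiffer (limma, adjusted p = 0.00731 and 5.31e-07), which left 74.6% and 51.3% of its signal.

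Ribosomes are built in an ordered series of steps. RNA polymerase I copies the ribosomal DNA repeats into a long precursor, small nucleolar ribonucleoproteins (snoRNPs) guide its methylation (box C/D) and pseudouridylation (box H/ACA), and separate sets of assembly factors then mature the small and the large subunit. Growing lymphocytes, those of the germinal centre among them, need large numbers of ribosomes, and many of these genes are known targets of the transcription factor MYC, which binds the E-box CACGTG.

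The E-box was searched in RefSeq promoter windows (GRCh38.p14), each reaching from 250 bases before to 50 bases after a transcription start, on both strands, which are identical for this motif. Windows were matched by symbol for 41 of the 50 genes, and 18 of these genes had an E-box in at least 1 window (43.9%), against 13.3% of 8209 tested genes with a window and 8.77% of all 27305 genes in the table. Of 36 measured members with a window 16 had one (44.4%). In each of those 18 genes an E-box lay within 50 bases of a start. The windows end 50 bases after a start, so any match past the start had to lie that near. The share of such near matches was not taken over all genes. By step the E-box was found for 0 of 5 polymerase I genes, 2 of 3 box C/D, 2 of 4 box H/ACA, 1 of 3 general nucleolar, 7 of 12 small subunit and 6 of 14 large subunit genes. The 8 stretches below were taken from different steps to show the motif in its place. They run 5′ to 3′ on the gene's strand, with the E-box in capitals.
RRP9 (chr3:51941892-51941921, minus strand, motif starting at base -5 from the start): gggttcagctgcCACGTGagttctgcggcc
FBL (chr19:39846356-39846385, minus strand, motif at base 7): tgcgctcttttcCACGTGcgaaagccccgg
NOP10 (chr15:34343130-34343159, minus strand, motif at base -11): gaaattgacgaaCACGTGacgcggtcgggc
DDX21 (chr10:68956604-68956633, plus strand, motif at base -31): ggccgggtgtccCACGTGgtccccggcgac
UTP20 (chr12:101280083-101280112, plus strand, motif at base -10): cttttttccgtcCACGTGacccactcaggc
UTP4 (chr16:69132621-69132650, plus strand, motif at base -16): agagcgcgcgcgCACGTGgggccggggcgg
PES1 (chr22:30591880-30591909, minus strand, motif at base 14): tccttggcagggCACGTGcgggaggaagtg
MRTO4 (chr1:19251807-19251836, plus strand, motif at base 15): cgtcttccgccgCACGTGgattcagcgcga
A core of the BCL6 motif, TTCCTNGAA, searched on both strands of the same windows, was found for 0 of the 41 genes, 0 of 90 other pathway genes described further on, and 1.3% of the tested genes. A match or its lack describes these letters only.

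Most of the measured members stood higher in Pfeiffer than in OCI-Ly7 before any knockdown. Between control arrays 35 of 43 were called higher in Pfeiffer and 3 lower, while 42.5% of all genes tested were called higher and 37.1% lower (79.6% in either direction). The median difference of the members was 0.98, about 1.98-fold, against 0.07 for all genes tested. At least 2-fold higher and called were 20 of 43 members, or 46.5%, against 18.4% of all genes. Among these 20 are RRP9, NOL6, RRP12 and UTP20, whose direction was set by the filter, as given below. Control arrays of the lines did not overlap for 35 members with Pfeiffer above and for 4 with Pfeiffer below, where 44% and 38.4% of all genes had such arrays. In OCI-Ly7 controls 5 members (POLR1A, RRP9, NOL6, RRP12 and UTP20) had a mean below the lowest level kept, 7.91. RRP9, NOL6, RRP12 and UTP20 passed the filter, which used all arrays of a line, through Pfeiffer alone and so had to differ. POLR1A, with a mean of 8.06 on OCI-Ly7 siRNA arrays, passed through OCI-Ly7 as well. The values of all 5 rest on dim OCI-Ly7 signals. Of the other 38 members 30 were called higher and 3 lower.

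**Figure D1:**
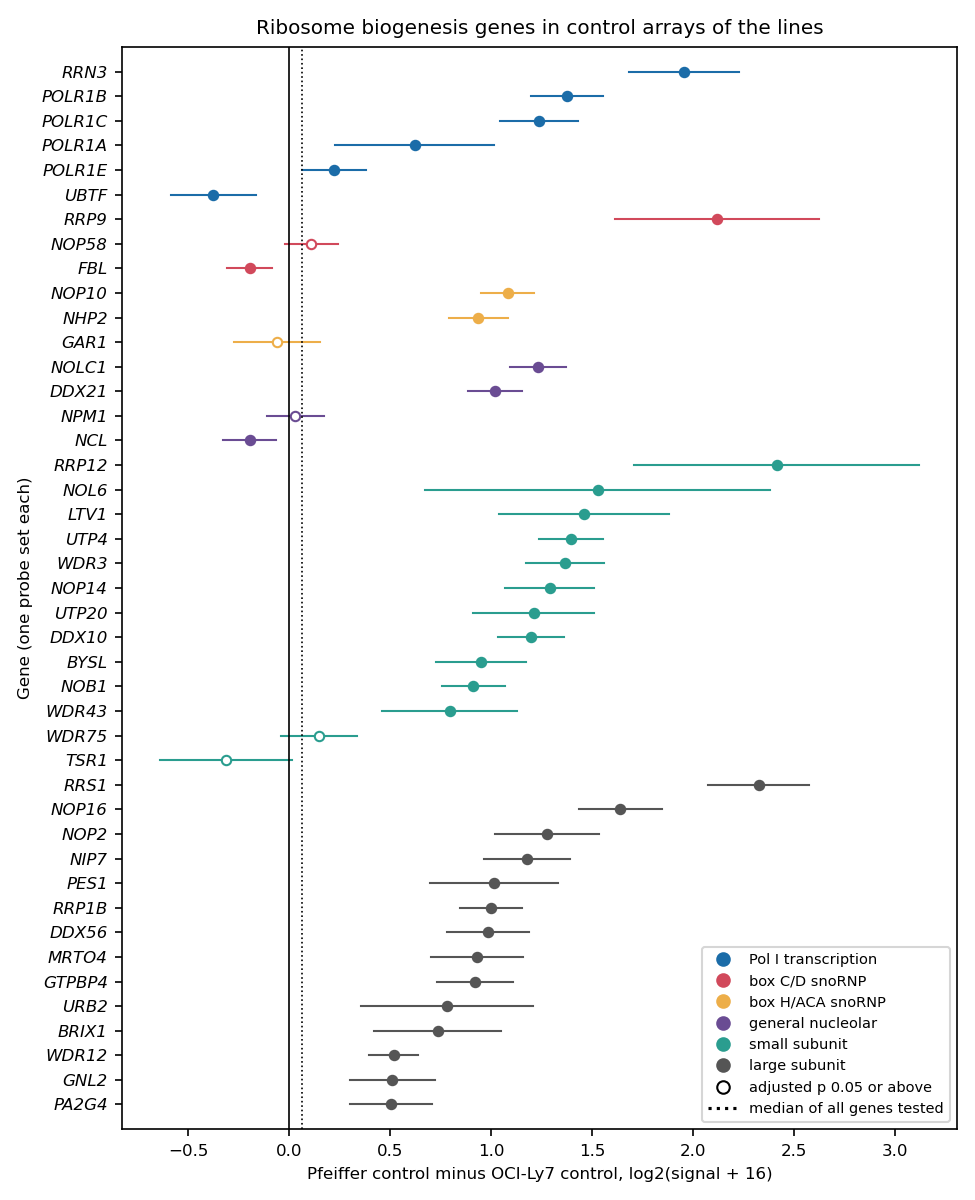
Difference between the control arrays of the lines for each of the 43 measured genes, as Pfeiffer minus OCI-Ly7 on the log2(signal + 16) scale, with 95% confidence intervals from limma and 3 arrays per group. Filled points have an adjusted p below 0.05, colours mark the step, and the dotted line is the median of all genes tested, 0.07; all 14 large subunit genes lie to its right, while FBL, NCL and UBTF are called lower.

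Each line is a single line, so this difference is one between these cultures, and it could not be told apart from any difference between the control oligonucleotides. The ACTB 3′ to 5′ log2 ratio, a measure of RNA integrity, was 0.28 to 0.31 on Pfeiffer controls and 0.11 to 0.20 on OCI-Ly7 controls. The same ratio of GAPDH overlapped, at -0.13 to -0.10 on Pfeiffer controls and -0.15 to -0.11 on OCI-Ly7 controls. The part of RNA integrity in the difference was not tested. The siRNA arrays of the lines, all titled siRNA, gave 35 members higher and 3 lower in Pfeiffer (all genes: 41.9% and 37.2%, or 79% in either direction), and 34 of the higher and all 3 of the lower were called in both sets of arrays. GNL2 was called between control arrays alone, and NPM1 between siRNA arrays alone (0.15, limma, adjusted p = 0.0485).

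In the polymerase I step, 5 of 6 genes were higher in Pfeiffer and 1 was lower, with a median difference of 0.93. RRN3, the initiation factor that brings polymerase I to the promoter, read 8.97, 9.0 and 8.55 on OCI-Ly7 controls and 10.73, 10.96 and 10.70 on Pfeiffer controls. The lines did not overlap, and the difference was 1.96 ± 0.13 (SE), or 3.88-fold (limma, adjusted p = 1.12e-09). The second largest catalytic subunit POLR1B differed by 1.38 ± 0.08 and POLR1C, which polymerase I shares with polymerase III, by 1.24 ± 0.09. A second probe set gave 1.27 for POLR1C. The probe sets of POLR1B disagreed. Of 2 others above the filter level one gave 1.15 and the other -0.64, and a dimmer one without cross-binding gave 0.49, which was not called (adjusted p = 0.0669). POLR1A, the largest subunit, read 8.08, 7.91 and 7.70 on OCI-Ly7 controls and 8.29, 8.71 and 8.57 on Pfeiffer controls, a smaller difference of 0.62 ± 0.18 (limma, adjusted p = 0.00618). POLR1E, another subunit, differed by 0.22 ± 0.07 (limma, adjusted p = 0.0123). That call was lost without OCI-Ly7 control replicate 3 (adjusted p = 0.059).

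UBTF, the factor that keeps ribosomal DNA open and recruits polymerase I, went the other way. It read 9.88, 10.13 and 10.10 on OCI-Ly7 controls against 9.70, 9.61 and 9.68 on Pfeiffer controls. All Pfeiffer values were below all OCI-Ly7 values, by 0.37 on average (-0.37 ± 0.10 SE, limma, adjusted p = 0.00284). Between siRNA arrays the difference was -0.73 (limma, adjusted p = 6.48e-06). Other UBTF probe sets above the filter level gave -0.39, -0.88 and -0.80 between controls.

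Among the 3 box C/D genes the lines differed in unlike ways. RRP9, a protein of the snoRNP that starts small subunit processing, read 6.79, 7.14 and 6.22 on OCI-Ly7 controls and 8.74, 9.04 and 8.73 on Pfeiffer controls. The difference of 2.12 ± 0.24 (SE) came to 4.35-fold (limma, adjusted p = 7.26e-07). RRP9 passed the filter through Pfeiffer alone, so the direction was set in advance and the p-value is no support for it. FBL, fibrillarin, the methyltransferase of these particles, was slightly lower in Pfeiffer. It read 13.76, 13.80 and 13.87 on OCI-Ly7 controls and 13.65, 13.65 and 13.57 on Pfeiffer controls, a difference of -0.19 ± 0.05 (limma, adjusted p = 0.0032). NOP58, a core scaffold of the same particles, stood at 0.11 ± 0.06 and was not called (limma, adjusted p = 0.106).

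Of the box H/ACA proteins, NOP10 and NHP2 were higher in Pfeiffer and GAR1 was not called. NOP10 read 12.82, 12.79 and 12.90 on OCI-Ly7 controls and 13.90, 13.94 and 13.92 on Pfeiffer controls. Its arrays lay closely together within each line, and the difference was 1.08 ± 0.06 (limma, adjusted p = 2.18e-10). NHP2 differed by 0.94 ± 0.07 (limma, adjusted p = 5.16e-09). GAR1 stood at -0.06 ± 0.10, with a 95% confidence interval of -0.27 to 0.16, so a difference of the size seen for the other box H/ACA genes lay outside its interval.

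The general nucleolar proteins split. NOLC1, a chaperone of snoRNPs, and DDX21, a helicase of polymerase I transcription and rRNA processing, were higher in Pfeiffer by 1.23 ± 0.06 and 1.02 ± 0.06 (limma, adjusted p = 8.99e-11 and 6.81e-10), and a second probe set of each gave 1.22 and 0.81. NCL, nucleolin, the abundant histone and RNA chaperone of the nucleolus, read 13.76, 13.83 and 13.75 on OCI-Ly7 controls and 13.49, 13.66 and 13.60 on Pfeiffer controls. All Pfeiffer values were the lower ones, by 0.19 on average (-0.19 ± 0.06 SE, limma, adjusted p = 0.00938). Without Pfeiffer control replicate 1 NCL stood at -0.15 and was not called (adjusted p = 0.0574). NPM1, nucleophosmin, a nucleolar chaperone and export factor, read 15.23, 15.33 and 15.35 against 15.26, 15.30 and 15.45. These overlapped, with a difference of 0.03 ± 0.07 (limma, adjusted p = 0.687).

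In the small subunit step 11 of 13 genes were higher in Pfeiffer, 0 were lower, and the median difference was 1.21. Among the 11 are RRP12, NOL6 and UTP20, whose direction the filter set, and the median is the value of UTP20. RRP12, a factor of pre-ribosome export, read 7.41, 6.94 and 5.74 on OCI-Ly7 controls and 9.28, 9.03 and 9.02 on Pfeiffer controls, the line means being 6.70 ± 0.86 and 9.11 ± 0.14 (SD, n = 3 arrays). The difference was 2.41 ± 0.33 (SE), or 5.33-fold (limma, adjusted p = 6.66e-06), against OCI-Ly7 arrays that were dim and spread widely. It ranged from 1.93 to 2.77 on leaving out single arrays, lowest without OCI-Ly7 control replicate 3, and was 1.15 with the mean of its probe sets. UTP20, a large scaffold of the small subunit processome, read 7.78, 7.90 and 7.94 on OCI-Ly7 controls and 9.0, 9.30 and 8.96 on Pfeiffer controls. It differed by 1.21 ± 0.14 (limma, adjusted p = 1.03e-06). RRP12 and UTP20 passed the filter through Pfeiffer alone, so the direction of both differences was set in advance.

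Other processome components were called higher as well. UTP4 differed by 1.40 ± 0.07, WDR3 by 1.36 ± 0.09, NOP14 by 1.29 ± 0.10, the helicase DDX10 by 1.20 ± 0.08 and WDR43 by 0.79 ± 0.16. Later factors were higher in Pfeiffer as well. The export adaptor LTV1 differed by 1.46 ± 0.20, BYSL by 0.95 ± 0.10 and NOB1, the nuclease that makes the final cut of small subunit rRNA, by 0.91 ± 0.07. NOL6 differed by 1.53 ± 0.40 (limma, adjusted p = 0.00257) on dim OCI-Ly7 values that ranged from 5.58 to 7.80. Without OCI-Ly7 control replicate 2, the lowest of them, the difference was 0.91. NOL6 too passed the filter through Pfeiffer alone. WDR75, at 0.15 ± 0.09, and TSR1, at -0.31 ± 0.15, were not called (limma, adjusted p = 0.138 and 0.0746). Other TSR1 probe sets above the filter level gave -0.18 and -1.07, and a dimmer one gave -0.99.

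Every one of the 14 measured large subunit genes was called higher in Pfeiffer, with differences from 0.51 for PA2G4 to 2.33 for RRS1 and a median of 0.96. RRS1, which helps to load the ribosomal particle that holds the smallest rRNA of the large subunit, read 8.81, 9.13 and 8.81 on OCI-Ly7 controls and 11.11, 11.42 and 11.20 on Pfeiffer controls. The gap between the lines was far wider than the spread within them, at 2.33 ± 0.12 (SE), or 5.01-fold (limma, adjusted p = 5.89e-11). NOP16 differed by 1.64 ± 0.10, NOP2, a methyltransferase of large subunit rRNA, by 1.28 ± 0.12, and NIP7 by 1.18 ± 0.10. A second probe set gave 1.56 for NOP16 and 0.61 for NIP7.

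PES1 and WDR12 work in one complex that processes large subunit rRNA, and they differed by 1.02 ± 0.15 and 0.52 ± 0.06. Averaged with a dim second probe set, PES1 turned to -0.054. RRP1B differed by 1.00 ± 0.07, but its second, less bright probe set gave 0.07. The others lay between 0.51 and 0.98: the helicase DDX56 (0.98 ± 0.10), the assembly factors MRTO4 (0.93 ± 0.11) and BRIX1 (0.74 ± 0.15), the nucleolar GTPases GTPBP4 (0.92 ± 0.09) and GNL2 (0.51 ± 0.10), URB2 (0.78 ± 0.20) and the growth-related PA2G4 (0.51 ± 0.09).

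The baseline difference was also set beside the promoter search. The 16 with an E-box had a median of 1.05, from -0.19 to 2.12, and 14 were called higher. RRP9, NOL6 and UTP20 among them passed the filter through Pfeiffer alone, which set their direction, and the 2.12 is that of RRP9. The 20 with a window but no E-box had a median of 0.92, from -0.37 to 1.96, and 15 were called higher. None of these 20 passed through Pfeiffer alone. The medians and counts are descriptions of the matched members, without a test, and the filter did not act on both groups alike.

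Few of the members were called after BCL6 siRNA. In OCI-Ly7, limma called 0 of 43, where 2.68% of all genes tested were called (1.69% higher, 0.991% lower). At an unadjusted p below 0.05, 7 were higher (RRN3, POLR1B, NHP2, NOP10, WDR3, WDR12 and GNL2) and 0 lower, which is 16.3% and 0% of members against 9.48% and 6.02% of all genes. The change was above 0 for 33 of 43 members and for 5344 of all 9888 genes. The median change of the members was 0.09, against 0.01 for all genes. That median was 0.051 without OCI-Ly7 siRNA replicate 1, 0.056 without OCI-Ly7 control replicate 1 and 0.036 with the mean of probe sets. The siRNA arrays lay above all controls for 5 members and below them for 0, against 13.4% and 9.42% of all genes.

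The intervals limit how far the members can have moved in OCI-Ly7. For 36 of 43 the 95% confidence interval of the change lay within 1.5-fold in either direction, and for 41 within 2-fold. The exceptions at 2-fold were the dim NOL6 and RRP12. RRN3 read 8.97, 9.0 and 8.55 on controls and 8.97, 9.17 and 9.32 on siRNA arrays. These overlapped, and the change of 0.32 ± 0.13 was not called (limma, adjusted p = 0.244). NOP10 read 12.82, 12.79 and 12.90 on controls and 13.15, 12.94 and 12.93 on siRNA arrays, which did not overlap, with a change of 0.17 ± 0.06 (limma, adjusted p = 0.172). The abundant nucleolar proteins stood near 0, with FBL at 0.00 ± 0.05, NCL at 0.07 ± 0.06 and NPM1 at 0.06 ± 0.07, as did UTP20 at 0.01 ± 0.14. UBTF stood at 0.10 ± 0.10 and POLR1A at 0.16 ± 0.18.

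**Figure D2:**
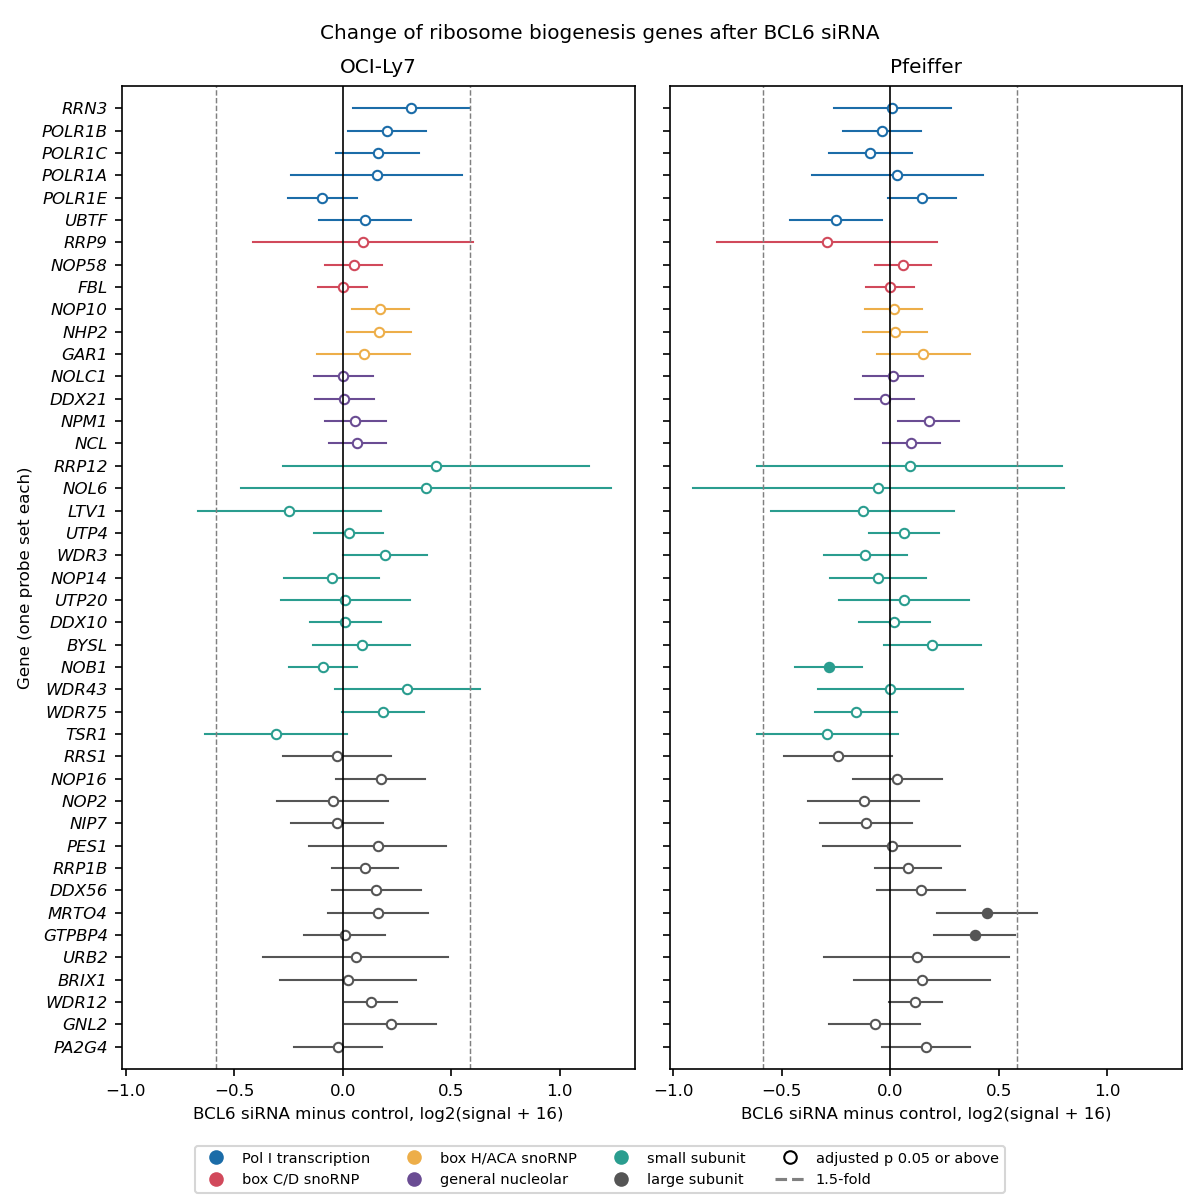
Change of the 43 genes after BCL6 siRNA in OCI-Ly7 (left) and Pfeiffer (right), as siRNA minus control on the log2(signal + 16) scale, with 95% confidence intervals from limma and 3 arrays per group. Filled points have an adjusted p below 0.05 and dashed lines mark 1.5-fold; 0 genes are filled on the left, and on the right MRTO4 and GTPBP4 lie above 0 and NOB1 below.

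In Pfeiffer 2 members rose and 1 fell, or 6.98% of 43, against 16.2% of all genes tested (7.9% higher, 8.31% lower). Their median change was 0.02, against 0.00 for all genes. GTPBP4, a nucleolar GTPase of large subunit maturation, rose. It read 11.54, 11.75 and 11.55 on controls and 12.18, 12 and 11.82 on siRNA arrays. All siRNA values were above all control values, and the rise was 0.39 ± 0.09 (SE), or 1.31-fold (limma, adjusted p = 0.00728). A second probe set gave 0.33. Averaged over its probe sets, a dim one included, the change was 0.42 and not called (adjusted p = 0.0919, against 0.00137 to 0.0919 over all the alternatives).

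MRTO4, a stalk-related factor that is later replaced by a ribosomal protein, read 10.51, 10.60 and 10.69 on Pfeiffer controls and 11.09, 10.86 and 11.19 on siRNA arrays. The arrays did not overlap, and it rose by 0.45 ± 0.11 (SE), or 1.36-fold (limma, adjusted p = 0.0107). Its second probe set gave a larger 0.91. In OCI-Ly7 MRTO4 read 9.72, 9.69 and 9.59 on controls and 9.92, 9.98 and 9.59 on siRNA arrays, which overlapped (0.16 ± 0.11, limma, adjusted p = 0.532).

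NOB1 fell in Pfeiffer. It read 12.75, 12.74 and 12.97 on controls and 12.48, 12.61 and 12.52 on siRNA arrays, all of them below the controls. The change was -0.28 ± 0.07 (SE), which left 82.1% (limma, adjusted p = 0.0154). The call was lost without Pfeiffer control replicate 3 (-0.21, adjusted p = 0.0763) and without Pfeiffer siRNA replicate 1 (-0.26, adjusted p = 0.0566). In OCI-Ly7 the change of NOB1 was -0.09 ± 0.07 and not called.

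**Figure D3:**
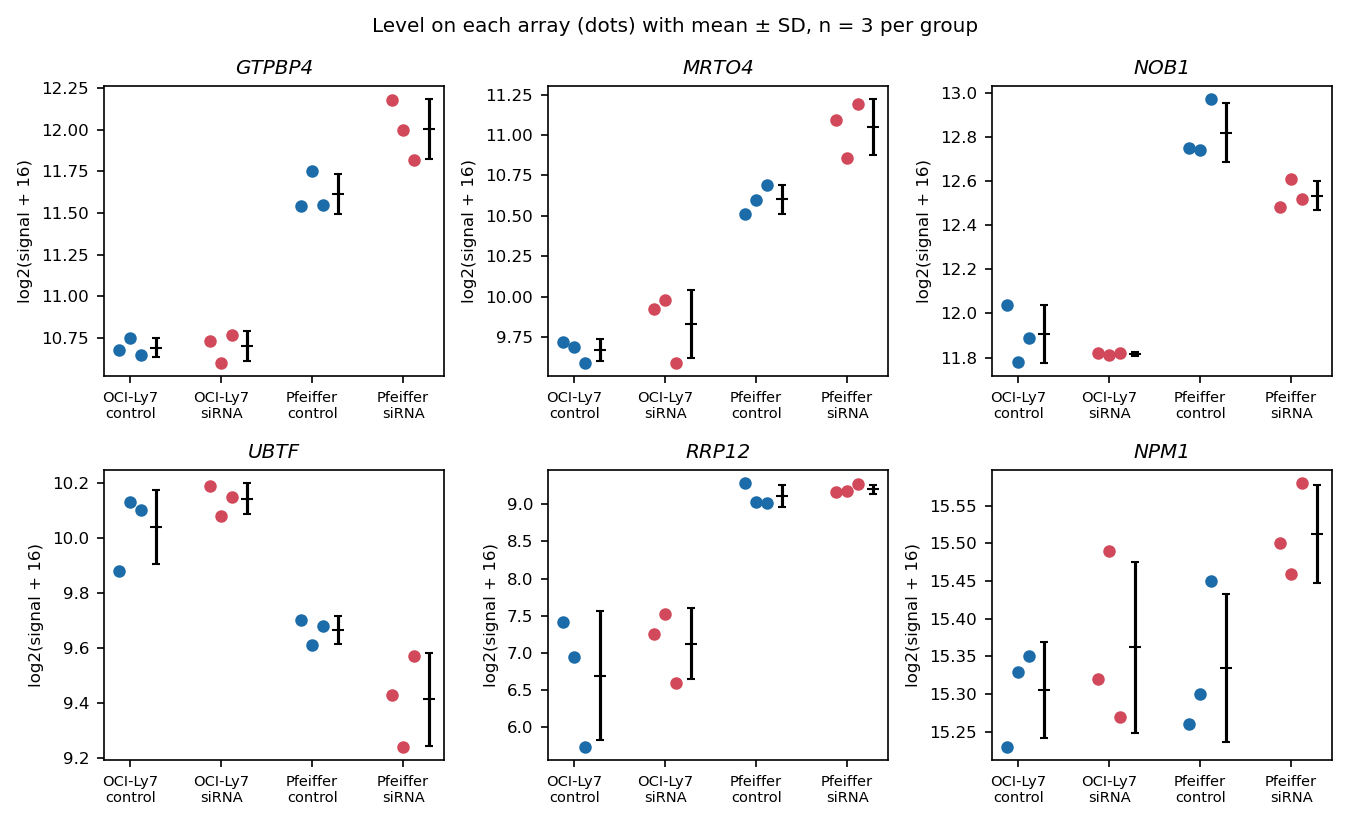
Level of 6 members on each of the 12 arrays, as log2(signal + 16), with the mean and SD of the 3 arrays of a group beside the dots. GTPBP4 and MRTO4 are higher and NOB1 lower on Pfeiffer siRNA arrays than on Pfeiffer controls, UBTF is lowest on Pfeiffer siRNA arrays, RRP12 is low and spread in OCI-Ly7, and NPM1 overlaps between the control arrays of the lines.

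Of the other members in Pfeiffer, UBTF and NPM1 came nearest to the threshold. UBTF read 9.70, 9.61 and 9.68 on controls and 9.43, 9.24 and 9.57 on siRNA arrays. These did not overlap, but the change of -0.25 ± 0.10 was not called (limma, adjusted p = 0.102). Other UBTF probe sets above the filter level gave -0.20, -0.09 and 0.13, so they did not share a direction. NPM1 read 15.26, 15.30 and 15.45 on controls and 15.50, 15.46 and 15.58 on siRNA arrays, 0.18 ± 0.07 higher and not called (limma, adjusted p = 0.0842). The siRNA arrays lay above all controls for 5 members and below them for 4, against 16% and 16.9% of all genes.

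Pfeiffer siRNA replicate 3 stood apart in its 3′ to 5′ log2 ratios. That of ACTB was 0.39 against 0.28 to 0.31 on the other Pfeiffer arrays, and that of GAPDH -0.03 against -0.13 to -0.09. What this replicate did to the calls was seen by leaving it out. Without it 5 of 43 members were called, against 16.1% of all genes in that fit. GTPBP4, MRTO4 and NOB1 remained, and UBTF at -0.33 (limma, adjusted p = 0.0364) and GAR1 at 0.28 (limma, adjusted p = 0.0271) joined them.

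By step in Pfeiffer, 2 of 14 large subunit genes rose, 1 of 13 small subunit genes fell, and 0 were called among the 6 polymerase I, 3 box C/D, 3 box H/ACA and 4 general nucleolar genes. Of all genes 7.9% were called higher and 8.31% lower, so that 1 or 2 genes of a step are near the background. At an unadjusted p below 0.05 these last 4 steps held 1 member, lower UBTF, among the polymerase I genes and 1, higher NPM1, among the general nucleolar ones, while 14.2% of all genes were higher and 14.9% lower at that level. The median change was -0.01 for polymerase I, 0.00 for box C/D, 0.02 for box H/ACA, 0.05 for general nucleolar, -0.05 for small subunit and 0.10 for large subunit genes. For 38 of 43 members the interval of the change lay within 1.5-fold, and for all 43 within 2-fold. FBL stood at 0.00 ± 0.05, NCL at 0.10 ± 0.06, POLR1A at 0.03 ± 0.18 and UTP20 at 0.06 ± 0.14, none of them called.

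The change after BCL6 siRNA did not pass the test for a difference between the lines in any of the 43 members, where 8.8% of all genes did (3.74% higher, 5.06% lower). Called in both lines were 0 members and 1.09% of all genes. At an unadjusted p below 0.05 there were 2 with the more positive change in Pfeiffer and 3 with the more negative one, or 4.65% and 6.98% of members against 10.2% and 13.2% of all genes. GTPBP4 had the lowest p, at a difference of 0.38 (limma, adjusted p = 0.0719), and UBTF stood at -0.36 (limma, adjusted p = 0.136). With array weights both were called (limma, adjusted p = 0.0267 and 0.0497), as were 11.1% of all genes in that fit. For 29 of 43 members the 95% confidence interval of the difference lay within 1.5-fold. Across the 43 members the changes in the lines had a Pearson r of 0.20 and a Spearman rho of 0.08, as a description over genes, which are not replicates.

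The rest of the pathway was read from a list of 103 other ribosome biogenesis genes, of which 101 were measured and 100 passed the filter. Between control arrays 73 were higher in Pfeiffer and 10 lower, with a median of 0.55, against 42.5% higher, 37.1% lower and a median of 0.07 for all genes. By step, 35 of 39 small subunit genes and 26 of 41 large subunit genes and 4 of 10 polymerase I genes were called higher. After BCL6 siRNA limma called 1 of 100 in OCI-Ly7 (2.68% of all genes), the WD repeat protein PWP1, which rose by 0.24 ± 0.06 (adjusted p = 0.0398). That call was lost in 16 of 24 alternatives, among them leaving out any OCI-Ly7 array, with adjusted p from 0.0246 to 0.947 over all.

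In Pfeiffer 6 of the 100 rose and 5 fell, or 11% in either direction, against 7.9%, 8.31% and 16.2% of all genes. The helicase RUVBL2, which helps to assemble box C/D particles, rose by 0.35 ± 0.06 (adjusted p = 0.000933), the polynucleotide kinase NOL9 by 0.50 ± 0.09 (adjusted p = 0.00116), the GTPase LSG1 by 0.38 ± 0.07 (adjusted p = 0.00156), the methyltransferase BUD23 by 0.32 ± 0.07 (adjusted p = 0.00605) and the processome protein IMP4 by 0.25 ± 0.07 (adjusted p = 0.0214), all in limma. POLR1D, a subunit shared by polymerases I and III, had the lowest p. It read 13.25, 13.21 and 13.28 on controls and 12.74, 12.92 and 12.83 on siRNA arrays, well apart, with a change of -0.42 ± 0.05 (limma, adjusted p = 4.05e-05). The helicase DDX52 fell by 0.47 (adjusted p = 0.00221), UTP3 by 0.33 (adjusted p = 0.000948), UTP14A by 0.32 (adjusted p = 0.0326) and TEX10 by 0.24 (adjusted p = 0.0428). TEX10 lost its call in 15 of 24 alternatives, UTP14A in 7 of 23 and IMP4 in 5 of 24.

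**Figure D4:**
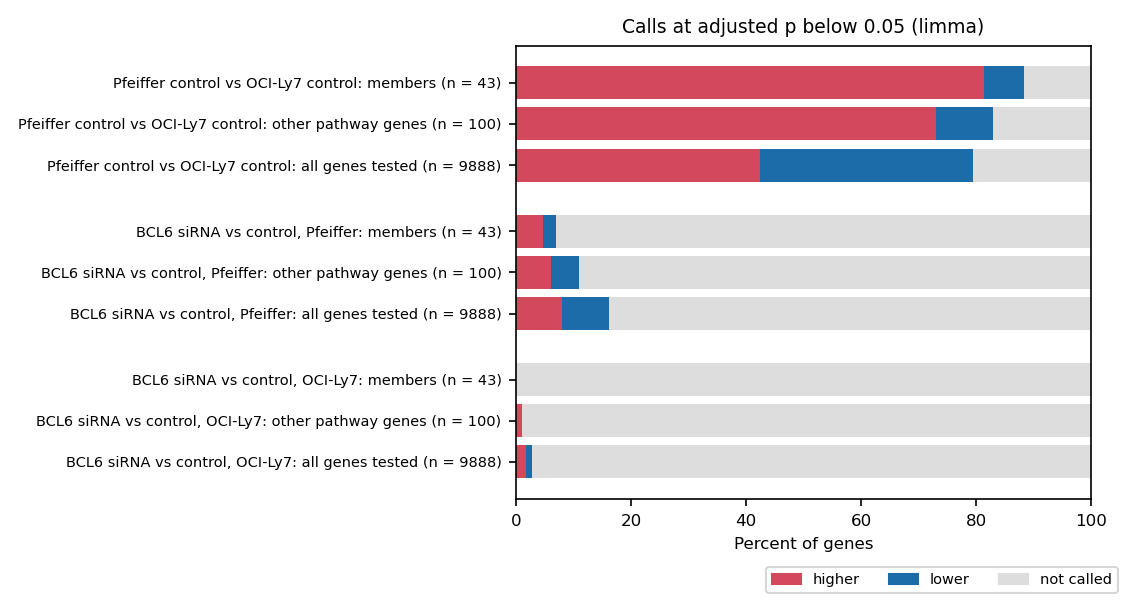
Percent of genes called higher, called lower or not called by limma (adjusted p below 0.05) in each comparison, for the 43 members, the 100 other pathway genes and all 9888 genes tested. Called higher in Pfeiffer controls were 35 members, against 2 called higher and 1 called lower after BCL6 siRNA in Pfeiffer and 0 called in OCI-Ly7.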

How the data were processed

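The values deposited by the authors are log2 signals of 54675 probe sets on 12 arrays, made with MAS5 and affy per the submitters' processing notes, with no versions given there. Transformed back, each array had a mean of 500 after trimming 2% at either end, so the authors had scaled arrays to one level, and no further normalization was applied. The mismatch correction of MAS5 adds noise to dim probe sets. Median signals were 71.3 to 85.0. Gene symbols came from GEO's annotation of the array: 41091 probe sets had 1 symbol and 1801 several. Of the former, 41037 were found by gene identifier in RefSeq (GRCh38.p14), which changed 0 symbols.

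Linear signals were turned into log2(signal + 16). The dimmest gene kept had a level of 7.91. Limma 3.58.1 (lmFit, eBayes with a trend, R 4.3.3) was fitted on 4 group means, with 8 residual degrees of freedom. Standard errors (SE) are the moderated ones of that fit. The siRNA arrays were compared with the controls of their line, these changes between the lines, and Pfeiffer with OCI-Ly7 within control and within siRNA arrays. The members and lists were chosen with earlier results of these data known. The rule for named genes took members called after siRNA, up to 6 per step, NCL, NPM1, FBL, POLR1A, UBTF and UTP20, the 3 largest called baseline differences each way, and up to 5 other pathway genes per line and direction. Same-numbered siRNA and control arrays did not deviate together (r from -0.08 to 0.08), so no block was used. The fit was tested on simulated data with 200 changed genes per line. It recovered 52.5% of changes of 0.4 in OCI-Ly7 and 49.3% in Pfeiffer, so changes of that size can be missed. In the data 265 genes were called in OCI-Ly7 and 1603 in Pfeiffer, so the simulated setting for Pfeiffer is unlike the data. Python 3.11.15, pandas 2.3.3 and matplotlib 3.10.9 drew figures and searched promoters.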

Additional observations from a re-analysis of the deposited data

Results flagged for a closer look

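For 5 of the other pathway genes the change after BCL6 siRNA differed between the lines in limma's test of the difference itself, given as the change in Pfeiffer minus that in OCI-Ly7. DDX52 differed by -0.62 (adjusted p = 0.00613), with 0.15 in OCI-Ly7 and -0.47 in Pfeiffer. POLR1D differed by -0.38 (adjusted p = 0.00373), with -0.04 and -0.42. UTP3 differed by -0.41 (adjusted p = 0.00469), with 0.08 and -0.33. WDR36, a small subunit processome protein, differed by -0.42 (adjusted p = 0.0319), with 0.21 in OCI-Ly7 and -0.21 in Pfeiffer, neither of which was called alone. RUVBL2 differed by 0.34 (adjusted p = 0.0184), with 0.00 and 0.35. The share of all genes that passed this test was 8.8%, against 5 of 100 other pathway genes and 0 of 43 members.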

How the results depend on the processing

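Other normalization, pseudocounts, filters, probe set choices, limma settings and left-out arrays were tried. A filter on the mean of all arrays and the use of siRNA arrays for the baseline were chosen after seeing the data. At baseline 38 members were called (79.6% of all genes), and 37 to 39 without single arrays (76.8% to 80.5%). With the upper 0.25 of genes 25 of 30 tested members were called, against 85.1% of all genes. The median baseline difference of 0.98 was 0.93 with a pseudocount of 64, 0.78 with the mean of all probe sets and 0.93 without cross-binding probe sets. PES1 turned to -0.054 with the mean of its probe sets. In OCI-Ly7 0 members were called without any one array. Their median change there was 0.036 with the mean of probe sets and 0.051 to 0.093 on leaving out arrays. In Pfeiffer 2 to 5 members were called without single arrays (11.3% to 16.3% of all genes), and the median change of the members was -0.02 to 0.04. The difference between lines was called for 1 member each with the upper 0.25 of genes, with the mean of probe sets and without cross-binding probe sets. It was called for 2 with array weights (GTPBP4 at 0.42 and UBTF at -0.44) and for 0 to 1 without single arrays. Of all genes 16.9%, 5.4%, 6.68%, 11.1% and 6.55% to 10% were called in these settings, in the same order. Of the other pathway genes, 0 were called in OCI-Ly7 without a filter, with the mean of probe sets, without cross-binding probe sets, without a trend, per line or with the replicate block, and 0 to 1 without single arrays. In Pfeiffer 5 were called with the mean of probe sets (10.4% of all genes) and 7 to 11 without single arrays (11.3% to 16.3%). POLR1D, RUVBL2, DDX52 and BUD23 each lost their Pfeiffer call in 1 setting. The cause was not tested. Replicate numbers were shared by the groups, but the arrays did not pair by them. With the replicate block 3 members were called in Pfeiffer (14.1% of all genes) and 0 in OCI-Ly7 (1.41%). Its baseline contrast compared the fitted levels of replicate 1 of each line, and not the means of the controls. It called 33 members (70% of all genes), without POLR1A, POLR1E, UBTF, FBL, NCL and NOL6. That count is therefore no check of the baseline calls. Quantile normalization moved the median of all genes by 0.04 or less in every contrast. Dim signals limit RRP9, RRP12, NOL6, POLR1A and UTP20, whose OCI-Ly7 control means were below or near the lowest level kept.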
